A study of Mus musculus with 9 samples.

Results

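The unperturbed transcriptome of sorted mouse lung endothelium was described from the 3 wild-type (WT) libraries of a series of 9. The WT libraries were chosen by their genotype label alone. DNMAML and Notch1f/f mice gave 3 libraries each, and these entered only the comparisons named below. DNMAML commonly stands for a Mastermind-like protein cut down so that it blocks Notch signalling, and Notch1f/f for Notch1 flanked by recombination sites. The labels used here give no driver or agent, and they give the WT group no allele or treatment. All mice were C57BL/6 and 6 weeks old, and cells negative for DAPI and CD45 and positive for CD31 were sorted. The gate therefore used Pecam1 protein (CD31) to choose the cells and Ptprc protein (CD45) to remove leukocytes. Whether replicate numbers stand for different animals is not stated.

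Endothelial cells line the blood and lymph vessels. In the lung most of them belong to capillaries wrapped around the air sacs, where gas exchange takes place across a barrier shared with alveolar epithelium. Lung capillaries are known to hold general capillary cells, which can divide and repair the vessel, and large aerocytes specialised for gas exchange. Lung endothelium is also known for converting angiotensin, clearing prostaglandins, and responding to bone morphogenetic proteins through a receptor complex mutated in heritable pulmonary hypertension.

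The WT libraries held 19832247, 15522100 and 20080217 counts in replicates 1, 2 and 3. Between 84.7% and 87.2% of the counts below 200 were even numbers, as happens when both reads of a fragment are counted. Replicate 2 stood apart from the other two. It alone of the WT libraries had counts of the Y-linked genes Ddx3y (79.2 TPM), Eif2s3y (41.6 TPM), Uty (21.3 TPM) and Kdm5d (12 TPM), each at 0 counts in replicates 1 and 3. Xist, the RNA that silences an X chromosome in female cells, was at 149 and 150 TPM in replicates 1 and 3 and at 0 counts in replicate 2. By these genes replicate 2 did not come from the animals of replicates 1 and 3, while the spread between replicates 1 and 3 may be technical. Over the 9299 genes with a WT mean of at least 10 CPM, Pearson's r of log2(CPM + 1) was 0.951 between replicates 1 and 2, 0.955 between 2 and 3 and 0.975 between 1 and 3. These correlations run across genes, which are not independent replicates. The unit CPM (counts scaled to a common library size) follows the number of reads of a gene, while TPM (transcript share) also divides by gene length, so levels of different genes are compared in TPM.

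The markers of the label were high in each WT library. Cdh5, which encodes the adhesion protein VE-cadherin of endothelial junctions (chromosome 8, 104828257 to 104871143, plus strand, GRCm39), was at 5384, 6088 and 5878 TPM in replicates 1, 2 and 3. Pecam1, the gene of the sort marker (chromosome 11, 106545043 to 106641454, minus strand), was at 2132, 2458 and 2317 TPM. Both were close together in all 3 libraries. Ptprc, the gene of the marker used for removal, was at 1, 0.619 and 0.083 TPM.

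Of the 56748 gene identifiers in the table, 29028 had 0 counts in all 3 WT libraries and 27720 had a count in at least 1. A level of 1 TPM or more in every library was reached by 15287 genes, of which 11776 are protein-coding. The thresholds of 10, 100 and 1000 TPM in every library were passed by 8894, 1431 and 82 genes. Among the 11776 protein-coding genes at 1 TPM or more the median of the mean level was 24.5 TPM, 10% of them lay above 125 TPM and 1% above 785 TPM. Counts were spread over many genes, since the 809 genes of highest share held 50% of WT counts and the highest 100 genes held 21.8%. Malat1, a nuclear long noncoding RNA (chromosome 19, 5845717 to 5852704), took the most counts of any gene, 1.33%, 1.86% and 1.23% in the 3 libraries. Protein-coding genes took 95.9%, 94.7% and 96.1% of counts but only 82.5%, 78.1% and 84.4% of TPM. Identifiers without a symbol here took 10.1%, 13.3% and 8.14% of TPM. The highest TPM belonged to the identifier ENSMUSG00002076161, a gene of 331 bases (chromosome 9, 78082585 to 78082915, minus strand) that could not be paired with a symbol here, at 72491, 99955 and 57333 TPM. A second such gene of 300 bases, ENSMUSG00000118841, was at 12123, 11107 and 8686 TPM. Every TPM depends on these entries, and over protein-coding genes alone the median TPM of the pan-endothelial genes, for example, was 1096 in place of 893.

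The 20 protein-coding genes of highest mean TPM combined housekeeping transcripts with the specialised functions of lung endothelium. The mitochondrially encoded mt-Co1, a subunit of cytochrome oxidase, came first at 7722 ± 2110 TPM (SD, n = 3), followed by Actb, cytoplasmic actin, at 7599 ± 697 TPM and B2m, the light chain of class I histocompatibility molecules, at 7268 ± 1283 TPM. The libraries of these genes overlapped, so their order is not fixed. Cdh5 was the highest endothelial gene at 5783 ± 361 TPM. Epas1, the oxygen-regulated transcription factor HIF-2alpha, was at 5366 ± 432 TPM. Plvap, which forms the diaphragms of caveolae and fenestrae, was at 4714 ± 754 TPM, and its 3 values were 4273, 5585 and 4284. Ace, the angiotensin-converting enzyme, followed at 3945 ± 368 TPM, Cd36, a fatty acid receptor, at 3845 ± 226 TPM, Calcrl, the receptor for adrenomedullin, at 3581 ± 236 TPM and Aqp1, a water channel, at 3497 ± 356 TPM. The ranges of Ace, Cd36 and Calcrl overlapped. Further down stood Ifitm3 (3208 ± 356 TPM), an antiviral membrane protein, Hpgd (3105 ± 367 TPM), which inactivates prostaglandins, H2-D1 (2977 ± 250 TPM), a class I heavy chain, and Adgrf5 (2817 ± 49.6 TPM), an adhesion receptor. The remaining places were held by mt-Cytb, mt-Nd1, Eef1a1, Itm2b, Jun and Sftpc. Mitochondrial genes and Eef1a1 have near-identical copies elsewhere in the genome, so their values are uncertain.

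**Figure D1:**
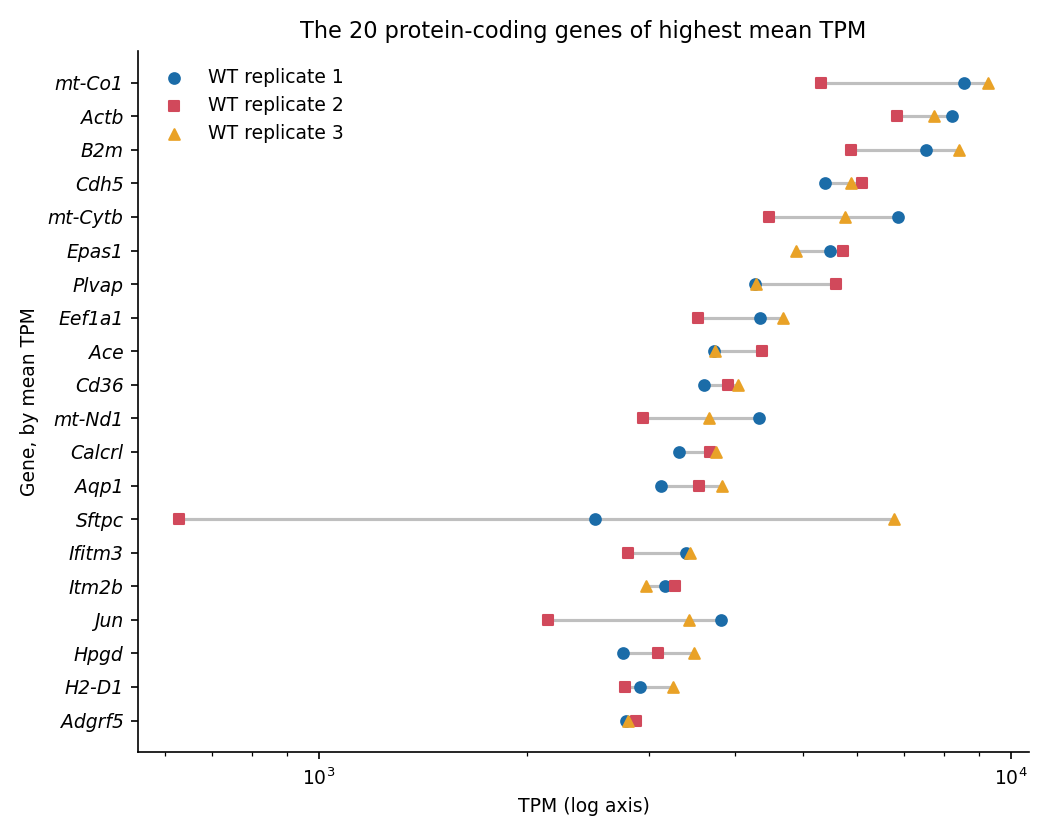
TPM (log axis) of the 20 protein-coding genes of highest mean level, with 1 marker for each of the 3 WT libraries and a line over their range. Adgrf5 kept a narrow range (2782 to 2874 TPM), while Sftpc ran from 628 to 6767 TPM, Jun from 2144 to 3808 TPM and mt-Co1 from 5321 to 9280 TPM.

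Several entries of this top group varied between libraries. Sftpc, the surfactant protein made by alveolar type 2 epithelial cells (chromosome 14, 70758389 to 70761521), was at 2503, 628 and 6767 TPM, and Jun, an immediate early transcription factor, at 3808, 2144 and 3426 TPM. The mitochondrially encoded mt-Co1, at 8566, 5321 and 9280 TPM, varied about as much as Jun. All 3 genes were lowest in replicate 2. Adgrf5 lay at the other end, with a coefficient of variation (CV, the SD divided by the mean of CPM) of 0.0053 across the libraries.

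Because TPM divides by length, the 2 scales ranked some genes very differently. The short ribosomal protein genes Rpl36, Rplp1 and Rpl38, the airway secretory gene Scgb1a1 and the histone gene Hist1h4h stood far higher by TPM. Rpl36, for example, ranked 83 by TPM and 1886 by CPM. The long genes Syne1, Macf1, Dst, Sptbn1 and Bmpr2, which encode cytoskeletal linkers, a spectrin and a bone morphogenetic protein receptor, stood far higher by CPM. Dst ranked 136 by CPM and 2383 by TPM.

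Pan-endothelial genes were all expressed. Each of the 30 listed genes was at 1 TPM or more in every library, with a median of 893 TPM and a range of 32.1 to 5783 TPM. After Cdh5 and Calcrl, the highest were Pecam1 (2303 ± 163 TPM), Eng (2070 ± 293 TPM), a co-receptor for bone morphogenetic proteins, and Cldn5 (2037 ± 138 TPM), a tight junction claudin. The ranges of Pecam1, Eng and Cldn5 overlapped. Next came Ptprb, Cd93, Clec14a, Icam2, S1pr1, Ramp2, Tek and Egfl7, with means between 1439 and 1085 TPM, of which neighbours overlapped. The receptors Tie1 and Kdr, the VEGF receptor 2, were at 924 ± 63.6 and 862 ± 65.6 TPM. Lower levels were found for Vwf (411 ± 48.4 TPM), the von Willebrand factor, and Flt1 (323 ± 26 TPM), the VEGF receptor 1. The transcription factors Tal1 and Lyl1, at 49.8 ± 8.8 and 32.1 ± 3.66 TPM, were the lowest of the list.

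The list of genes known to be enriched in lung endothelium over other endothelia had the highest median of the organ lists. Its 16 genes all passed 1 TPM in every library, with a median of 1014 TPM. Beside Epas1, Ace, Calcrl and Hpgd it held Tmem100 (2292, 2357 and 2409 TPM), a target of the receptor ALK1, and Acvrl1 (2058, 2646 and 2328 TPM), which encodes that receptor. The transcription factor Foxf1, which is needed for lung vessels to form, was at 1086, 878 and 1151 TPM. The sodium channel gene Scn7a was at 937 ± 53.7 TPM. Lists for endothelium of other organs had medians of 20.9 TPM (heart and muscle, 12 genes), 7.47 TPM (brain, 14 genes) and 1.65 TPM (liver sinusoid, 13 genes). Without WT replicate 1 the liver median was 1.02 TPM. Single members of those lists were high all the same. From the brain list these were Pltp (2206 ± 218 TPM), a phospholipid transfer protein, and Ly6c1 (854 ± 109 TPM), while the glucose transporter Slc2a1 (12.1 ± 3.81 TPM) and the lipid transporter Mfsd2a (1.24 ± 1.08 TPM) were low. From the liver list, Lyve1 and Stab1 were at 606 ± 50.5 and 171 ± 32 TPM, whereas Stab2 (1.65 ± 1.13 TPM) and Oit3 (1.16 ± 0.532 TPM) were near the threshold and Clec4f had 0 counts. The heart and muscle list was led by Cd36, Aqp1 and Car4, while Fabp4 was at 8.38 ± 2.08 TPM. Car4 was in the lung list as well, and Calcrl of the lung list was also in the pan-endothelial list. All lists were chosen with earlier results of these data known, so the order of the organ medians is a description and not a test.

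**Figure D2:**
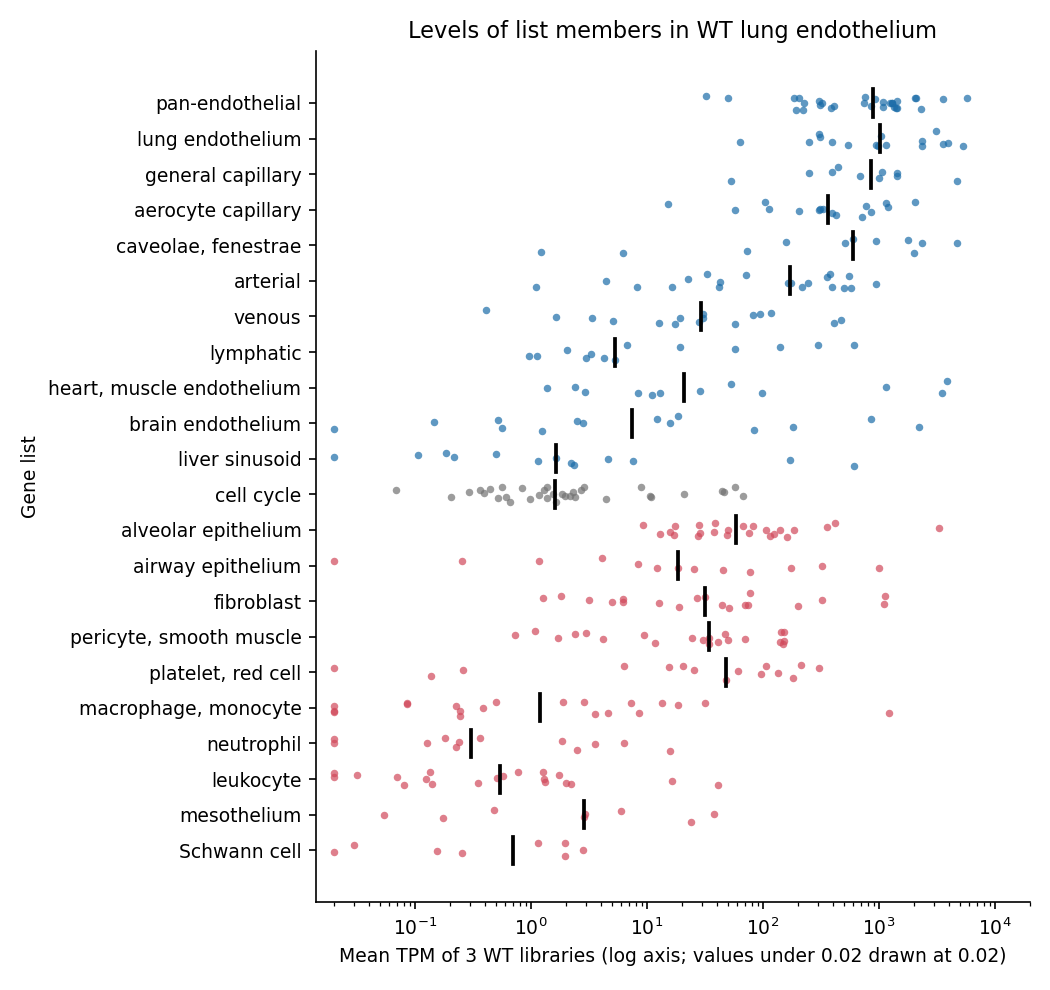
Mean TPM over the 3 WT libraries (log axis) of each member of 22 gene lists, with a black bar at the list's median and values under 0.02 drawn at 0.02; endothelial lists are blue, the cell cycle grey and other cell types red, and the lung endothelium list has its median at 1014 TPM and the leukocyte list at 0.538 TPM (0.306 TPM without WT replicate 1).

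Markers of both capillary types were abundant, and a bulk library cannot separate fewer cells of a type from less RNA per cell. The 10 general capillary genes had a median of 850 TPM. Its members included Gpihbp1 (1012 ± 178 TPM), which anchors lipoprotein lipase in capillaries, Glp1r (688 ± 130 TPM), Kit (442 ± 63.9 TPM) and Aplnr (250 ± 1.79 TPM), the apelin receptor. Aplnr was nearly the same in every library, at 248, 251 and 251 TPM, while Sema3c was at 901, 939 and 1371 TPM, highest in replicate 3. Lpl, the lipoprotein lipase gene, was the lowest of the list at 53.2 ± 7.84 TPM. The 16 aerocyte genes had a median of 361 TPM, from Cyp4b1 (2051 ± 551 TPM), Igfbp7 (1204 ± 63.2 TPM) and Car4 (1150 ± 225 TPM), a carbonic anhydrase, down to Apln (113 ± 9.06 TPM), the ligand of Aplnr, and Rprml (15.3 ± 3.35 TPM). Ednrb, an endothelin receptor, was at 359, 446 and 367 TPM. Some members, such as Ptprb and Cd93 in the first list and Kdr and Nrp1 in the second, are expressed by most endothelial cells.

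Genes of larger and lymphatic vessels were present at lower medians, 170 TPM for 20 arterial, 29.2 TPM for 16 venous and 5.34 TPM for 13 lymphatic genes. Among arterial genes Efnb2, a ligand of Eph receptors, was at 557, 581 and 582 TPM, Gja4, a connexin, at 527, 543 and 598 TPM, Sox17 at 174 ± 8.49 TPM and Gja5 at 33.2 ± 6.17 TPM. Bmx, a kinase used as an arterial marker, was at 16.3 ± 1.46 TPM. Mgp led the arterial list at 1565, 483 and 780 TPM, a wide range, and fibroblasts and smooth muscle also make it. The venous receptor Ephb4 was at 433, 480 and 511 TPM, Slc6a2, the noradrenaline transporter, at 116 ± 34.3 TPM, and Nr2f2, the venous fate regulator COUP-TFII, at 42, 22.4 and 20.2 TPM. Ackr1, a chemokine receptor of venules, was at 2.45 TPM, 0 counts and 2.44 TPM. The lymphatic list was uneven: Lyve1, Ccl21a (296 ± 50.4 TPM) and Flt4 (141 ± 7.55 TPM) were high, while the lymphatic regulator Prox1 was at 3.79, 3 and 2.2 TPM and Pdpn at 19.4 ± 4.59 TPM. Lyve1 and Flt4 are also known in blood capillaries, and Ccl21a has near-identical copies.

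Most genes of caveolae, the membrane pits that fill lung endothelium, were even between the libraries. Cav1 was at 2279, 2380 and 2388 TPM, Cavin2 at 1818, 1712 and 1799 TPM, Cavin1 at 940 ± 51.2 TPM and Cav2 at 593 ± 18.8 TPM. Their regulators Ehd2 (511 ± 5.62 TPM), Ehd4 (1998 ± 69.6 TPM) and Pacsin2 (159 ± 2.4 TPM) kept as close. The muscle forms Cav3 (1.21 ± 1.34 TPM) and Cavin4 (6.19 ± 3.18 TPM) were far lower. Of the 11 genes, 9 had a mean of at least 10 CPM, with a median CV of 0.0468. Over all 9299 genes at that level the median CV was 0.119. It was 0.0904 for those between 100 and 1000 CPM and 0.0879 above 1000 CPM. Plvap, of the same list, had the highest CV of the 9, at 0.137.

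Junction genes followed Cdh5, Pecam1 and Cldn5. The 24 genes had a median of 148 TPM. The catenins that tie cadherins to actin were led by Jup (759 ± 49.2 TPM), Ctnna1 (688 ± 26.2 TPM) and Ctnnb1 (464 ± 60.5 TPM), and the tight junction scaffold Tjp1 was at 683 ± 35.8 TPM. Ocln, the occludin of tight junctions, was at 83.9 ± 9.15 TPM. N-cadherin (Cdh2) was at 3.64 ± 1.66 TPM and the connexin Gja1 at 5.34 ± 1.48 TPM. Among the cytoskeletal genes, Vim was at 1540, 1530 and 1466 TPM and Sptbn1 at 1685 ± 91.5 TPM.

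Endothelial transcription factors spanned a wide range. Below Epas1 stood Sox18 (1076 ± 41 TPM), Foxf1, Klf2 (939, 626 and 883 TPM) and Klf4 (705, 470 and 772 TPM), both known as factors induced by laminar flow. Klf2 and Klf4 were lowest in replicate 2. Erg and Fli1, ETS factors that maintain endothelial identity, were at 388 ± 29.9 and 162 ± 2.61 TPM. Gata2 was at 292 ± 32.2 TPM, Tbx3 at 306 ± 17.2 TPM and Tbx2 at 331 ± 54.3 TPM. Hif1a, the sister of Epas1, was at 44.8 ± 2.14 TPM. Etv2, which acts in the embryo, had 0.731 TPM in replicate 1 and 0 counts in replicates 2 and 3, and Foxc2 was at 0.961 ± 0.539 TPM. The whole list of 36 factors had a median of 63 TPM.

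Components of the Notch pathway, which selects arterial fate and tip cells, had a median of 63.9 TPM over 28 genes. The ligands came in the order Dll4 (349, 392 and 322 TPM), Dll1 (158 ± 14.4 TPM), Jag2 (71.6 ± 11 TPM) and Jag1 (69.5 ± 8.53 TPM), and the ranges of Jag2 and Jag1 overlapped. Dll3 had 0 counts. Among the receptors Notch1 was at 198, 246 and 213 TPM and Notch4, the endothelial receptor, at 171, 228 and 197 TPM, so these ranges overlapped. Notch3, which is typical of mural cells, was at 52.2, 56.5 and 32.2 TPM and Notch2 at 29.9 ± 5.47 TPM. The nuclear partner Rbpj was even at 14.5, 14.7 and 14 TPM, and its coactivators Maml2, Maml1 and Maml3 were at 61.3, 50.8 and 23.3 TPM. The target Hey1 was at 359, 465 and 303 TPM and Hes1 at 228, 149 and 256 TPM, opposite in replicate 2, while Heyl was at 16.5 ± 5.23 TPM, Nrarp at 7.88 ± 1.36 TPM and Hey2 at 6.18 ± 2.04 TPM. Of the fringe enzymes that tune ligand choice, Lfng was highest at 219 ± 16.1 TPM.

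In the VEGF and angiopoietin systems Kdr, Flt1, Tek and Tie1 stood above most ligands, while the co-receptor Nrp2 was low at 19.8, 13.4 and 13 TPM. Vegfa, the main growth factor for vessels, was the highest ligand at 867, 1051 and 830 TPM, a range that overlapped that of its receptor Kdr (799, 930 and 858 TPM). Vegfc was at 93.8 ± 22.2 TPM, Vegfd at 48.5, 16 and 12.9 TPM and Pgf at 3.25 ± 1.87 TPM. The receptor Tek was at 1161, 1479 and 1122 TPM. Its antagonist Angpt2 was at 57.3 ± 14.7 TPM and its agonist Angpt1, a product of mural and stromal cells, at 42.2, 17.5 and 19.5 TPM. Angpt1 and Vegfd were thus highest in replicate 1.

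Of the 31 genes in the list of the bone morphogenetic protein pathway, 28 were at 1 TPM or more in every library. The receptors Acvrl1, Eng and Bmpr2 (518, 588 and 519 TPM) were abundant, whereas Bmpr1a (13.5, 6.01 and 13.6 TPM) and Tgfbr1 (20.3 ± 2.17 TPM) were not. Of the ligands, Bmp6 was at 603 ± 57.6 TPM and Bmp4 at 62.3 ± 7.12 TPM. The circulating ligand Gdf2 had 0 counts, and Bmp10 was at 0.0789 ± 0.0689 TPM. Target genes stood at 661 ± 98.2 (Id3), 617 ± 174 (Id1), 600 ± 33.3 (Smad6) and 181 ± 25.7 TPM (Smad7). In the Wnt list, below Ctnnb1 and Nkd1 (325 ± 30.1 TPM), an inhibitor of the pathway, Fzd4 (232 ± 21.8 TPM) and its partner Tspan12 (122 ± 3.42 TPM) were expressed, while the ligands Wnt7a, Wnt7b and Ndp were below 1 TPM on average.

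Genes acting on blood cells and vessel tone followed. Thbd, the anticoagulant receptor thrombomodulin, was at 2307, 2339 and 2658 TPM, far above Vwf, and Anxa2, an assembly site for plasmin, was at 337 ± 43.6 TPM. Tissue factor (F3) was at 5.64 ± 1.76 TPM and factor VIII (F8) at 2.68 ± 0.411 TPM. The adhesion molecules of inflamed endothelium were low, with Vcam1 at 19.3 ± 7.18, Selp at 12.8 ± 6.5 and Sele at 5.13 ± 2.92 TPM, and all 3 were highest in replicate 1. Icam2 was at 1337 ± 173 TPM, and Icam1 was even at 249, 257 and 240 TPM. Nos3, the endothelial nitric oxide synthase, was at 42.1 ± 3.51 TPM. Among receptors for vasoactive signals, S1pr1 was at 1300 ± 91.5 TPM and Npr1 at 277 ± 48.1 TPM. Adgre5 differed by library, at 1959, 3079 and 1827 TPM, highest in replicate 2. The stretch channels Piezo1 and Piezo2 were at 125 ± 10.4 and 97 ± 8.7 TPM.

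Antigen presentation genes were abundant, with B2m, H2-D1 and H2-K1 (2085, 2107 and 2353 TPM) of class I in front. Genes of class II, which serve professional antigen-presenting cells, were present as well. Cd74, the invariant chain, was at 617, 347 and 948 TPM, H2-Ab1 at 213, 188 and 296 TPM and their activator Ciita at 21.6, 22.6 and 28.8 TPM. Cd74 was lowest in replicate 2 and highest in replicate 3. The 20 macrophage and monocyte markers summed to 1200, 365 and 2388 TPM in the same order, nearly all of it Lyz2, while the defining markers Adgre1, Marco and C1qa were at or below 0.913 TPM in each library. The alveolar epithelial sums, 4470, 1388 and 10554 TPM, had that order too. The B cell marker Cd79a was at or below 0.526 TPM. Their part in the result was not tested. The 20 leukocyte markers had a median of 0.538 TPM, or 0.306 TPM without WT replicate 1, and summed to 94.4, 55.6 and 59.8 TPM, led by Lcp1 (41.2, 35.1 and 46.6 TPM), Laptm5 (34.8, 7.29 and 6.82 TPM) and Coro1a (2.34, 3.54 and 0.82 TPM). Interferon response genes had a median of 52 TPM over 29 matched genes, led by Ifitm3, Ifitm2 (499 ± 52.5 TPM) and Irf1 (463, 276 and 402 TPM).

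Proliferation genes were close to the lower limit. The 34 cell cycle genes had a median of 1.61 TPM, and only 20 reached 1 TPM in every library. Mki67, the classical marker of dividing cells, was at 2.02, 2.74 and 2.21 TPM, Top2a at 1.87, 1.26 and 0.97 TPM and Ccnb1 at 0, 0.117 and 0.0902 TPM. Replication genes were higher, with Pcna, the sliding clamp of DNA polymerase, at 63.8, 55.1 and 83.6 TPM and the licensing factors Mcm3 at 63.3, 51.7 and 56.3 TPM and Mcm4 at 46.5, 42.6 and 48.1 TPM. Cell cycle inhibitors exceeded the mitotic genes, such as Cdkn1a at 94 ± 15 and Cdkn1b at 70.3 ± 8.32 TPM.

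The spread between the WT libraries depended on the level. The median CV was 0.373 for the 6095 genes between 1 and 10 CPM, 0.129 between 10 and 100 CPM, 0.0904 between 100 and 1000 CPM and 0.0879 for the 102 genes above 1000 CPM. Counting error alone, taken as Poisson, gave median CVs of 0.14, 0.0418, 0.0179 and 0.0059 in these bins, below the observed median in each. Counts that enter in pairs make this an underestimate of the counting error. The common biological coefficient of variation estimated by edgeR was 0.270 for WT, 0.310 for DNMAML and 0.362 for Notch1f/f. These 3 values have no test and each rests on 3 libraries. Without WT replicate 2 the WT value was 0.230. The protein-coding genes of lowest CV above 100 CPM were Baz2a, Copg1, Ctsd, Arhgef1, Cpd and Zfp319, with Baz2a at 65.9, 68.5 and 66.5 TPM and Ctsd, a lysosomal protease, at 298, 310 and 303 TPM.

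Genes that varied most formed groups. A CV of 0.5 or more was found in 288 of the 9299 genes at 10 CPM or more (3.1%). Apart from the Y-linked genes, the protein-coding genes of highest CV were Hspa1b (1.23), Cyp26b1 (1.16), Bin2 (1.13), Lyz1 (1.12), Treml2 (1.12), Hspa1a (1.11), Lrp2 (1.02) and Sftpd (1.01). To describe which library set a gene apart, a gene was called high or low in 1 library when it differed by 1.5-fold or more, after adding 1 CPM, from both others. This rule was chosen after seeing the data. Of the 9299 genes, 229 (2.46%) were high and 40 (0.43%) low in replicate 1, 129 (1.39%) were high and 345 (3.71%) low in replicate 2, and 80 (0.86%) were high and 80 (0.86%) low in replicate 3. None of the 30 pan-endothelial genes and none of the 16 lung endothelium genes had such a profile. Most of the 9299 genes had none either. The median CV of these lists was 0.1 and 0.0718. Most members lay above 100 CPM, where the median CV of all genes was 0.0904 up to 1000 CPM and 0.0879 beyond. The pan-endothelial median was not below these values.

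**Figure D3:**
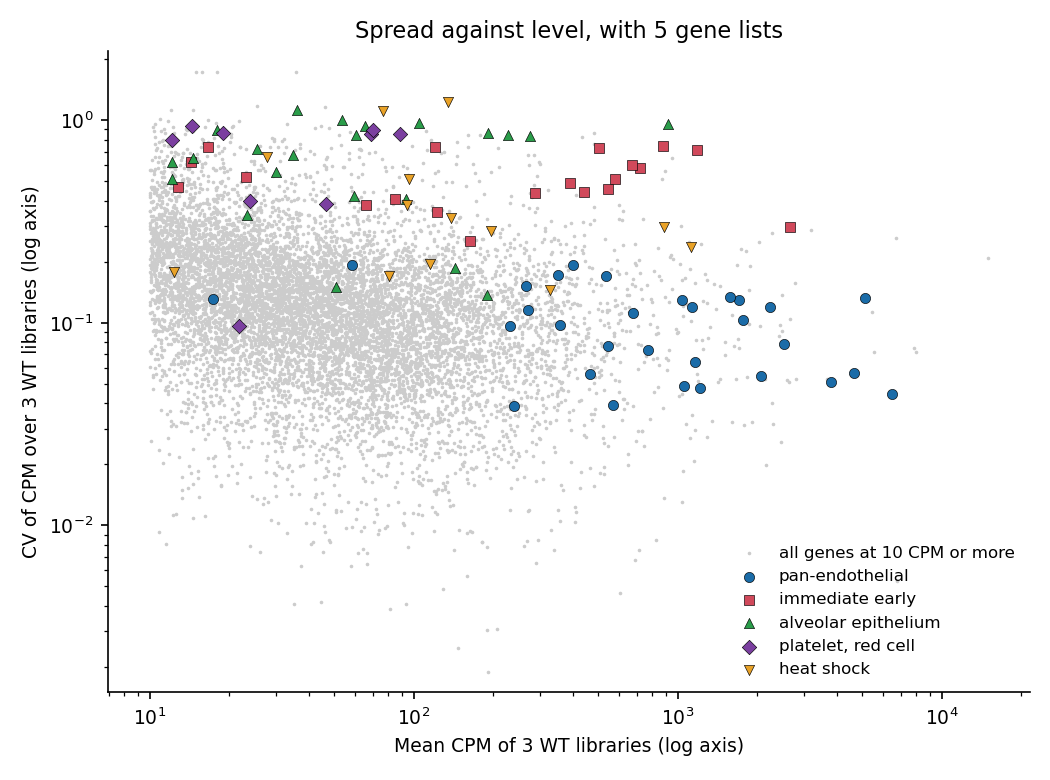
CV of CPM over the 3 WT libraries against mean CPM (both log axes) for the 9299 genes at 10 CPM or more in grey, with members of 5 gene lists in colour. Pan-endothelial genes lie at a CV between 0.0387 and 0.194, and immediate early genes between 0.254 and 0.742.

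Immediate early genes, which respond quickly to growth factors and stress, were among the groups that varied between the WT libraries. Of the 20 listed genes at 10 CPM or more, 18 were low in replicate 2 (3.71% of all genes were). Another 1 was high in replicate 1, against 2.46% of all genes. Beside Jun and Ier2 (1417, 554 and 1266 TPM), Fos was at 3143, 521 and 1950 TPM, Atf3 at 1164, 143 and 1291 TPM and Egr1 at 1283, 225 and 676 TPM. In each of these genes replicate 2 lay far below both other libraries. Junb (1367, 443 and 1004 TPM), Zfp36 (1198, 322 and 803 TPM), which destabilises inflammatory messengers, Dusp1 (850, 319 and 666 TPM), a phosphatase, and Nr4a1 (214, 30.5 and 136 TPM) were also lowest in replicate 2. The 24 genes together summed to 17795, 5983 and 13996 TPM. Alveolar and fibroblast markers, given below with their sums, were lowest in replicate 2 too, and their part in the result was not tested. 

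The bases before the start of these genes are shown for members of the lists that moved between libraries. They are 250 bases upstream of the start in the RefSeq table for GRCm38.p6, on the strand of the gene, 5′ to 3′. Capitals mark TATAAA in Fos (chr12:85473640-85473889, plus strand) and Ppbp (chr5:90768268-90768517, plus), the CArG box in Zfp36 (chr7:28379229-28379478, minus), the sequence TGACGTCA in Dusp1 (chr17:26508473-26508722, minus), and the letters that differ between Hspa1a (chr17:34972157-34972406, minus) and Hspa1b (chr17:34959239-34959488, minus).
Fos: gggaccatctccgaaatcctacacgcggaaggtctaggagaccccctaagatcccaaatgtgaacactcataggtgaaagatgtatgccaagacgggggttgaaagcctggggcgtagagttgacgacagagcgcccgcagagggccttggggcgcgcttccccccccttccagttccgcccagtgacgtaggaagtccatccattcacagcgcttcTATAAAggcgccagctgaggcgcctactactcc
Zfp36: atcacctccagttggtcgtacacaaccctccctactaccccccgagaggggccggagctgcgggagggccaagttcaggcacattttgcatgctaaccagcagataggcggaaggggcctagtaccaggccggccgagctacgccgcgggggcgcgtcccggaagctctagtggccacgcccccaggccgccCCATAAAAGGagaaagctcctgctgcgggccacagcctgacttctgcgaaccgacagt
Dusp1: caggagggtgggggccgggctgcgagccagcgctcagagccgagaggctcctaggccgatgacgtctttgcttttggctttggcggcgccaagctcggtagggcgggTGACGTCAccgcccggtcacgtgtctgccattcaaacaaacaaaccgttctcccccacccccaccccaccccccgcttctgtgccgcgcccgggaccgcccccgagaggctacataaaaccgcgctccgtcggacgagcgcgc
Ppbp: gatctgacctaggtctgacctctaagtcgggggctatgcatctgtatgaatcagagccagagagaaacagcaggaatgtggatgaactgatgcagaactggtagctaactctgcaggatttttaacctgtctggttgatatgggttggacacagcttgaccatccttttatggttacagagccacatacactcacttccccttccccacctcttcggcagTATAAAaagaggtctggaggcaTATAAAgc
Hspa1a: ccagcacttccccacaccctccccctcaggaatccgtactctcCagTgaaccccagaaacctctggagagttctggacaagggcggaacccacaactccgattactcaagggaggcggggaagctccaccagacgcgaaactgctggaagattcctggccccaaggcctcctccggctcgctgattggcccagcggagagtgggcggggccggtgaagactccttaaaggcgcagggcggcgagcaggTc
Hspa1b: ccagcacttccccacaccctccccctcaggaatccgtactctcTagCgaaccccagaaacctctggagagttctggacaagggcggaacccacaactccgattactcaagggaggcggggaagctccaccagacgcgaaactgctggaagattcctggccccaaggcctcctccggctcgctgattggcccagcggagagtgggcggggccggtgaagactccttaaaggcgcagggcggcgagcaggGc

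TATAAA began 33 bases before the start in Fos and 30 bases before it in Ppbp, which held a second copy 8 bases before the start. Among immediate early genes, 19 of 24 were found in the table, with 25 windows. The CArG box, the binding site of serum response factor, was found in 6 windows (24%) against 1.47% of all 32851 windows, in Dusp5, Zfp36 and in 4 windows of Egr2. The window of the platelet gene Ppbp also held 1 CArG box, left in lower case above. TGACGTCA, the cyclic AMP response element, was found in 3 windows (12%), of Btg2, Dusp1 and Maff, against 1.55% of all. The search covered both strands, except for TATAAA, which was searched on the strand of the gene and can lie inside a CArG box. TATAAA was found in 7.59% of all windows. Windows of 1 gene can overlap, and a match is a description of letters, not of binding.

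Heat shock genes were set apart by replicate 3. Of the 13 listed genes, all at 10 CPM or more, 6 were high in replicate 3 (0.86% of all genes were). Another 1 was low in replicate 2, against 3.71% of all genes. Hsp90ab1, the most abundant, was at 1215, 1220 and 1778 TPM and did not pass 1.5-fold. Hspa1b was at 54.5, 49.9 and 435 TPM and Hspa1a at 46.4, 23.9 and 219 TPM. These inducible chaperones share 247 of the 250 upstream bases shown above (98.8%), and their transcripts are near-identical too, so reads may be divided between them. Hspa8 (665, 621 and 1028 TPM), Hspb1 (298, 202 and 542 TPM) and Hsph1 (8.83, 9.09 and 25.2 TPM) were high there as well. Hspa5, the chaperone of the endoplasmic reticulum, was at 258, 278 and 337 TPM. Without WT replicate 3 the median of the list was 103 TPM in place of 169 TPM. Alveolar epithelial sums (4470, 1388 and 10554 TPM) and macrophage sums (1200, 365 and 2388 TPM) were also highest in replicate 3, and their part in the result was not tested. The sequence TTCNNGAA, from the heat shock element, was found in 4 of 15 upstream windows of 10 listed genes, against 7.17% of all windows. These were windows of Hspd1, Hspe1 and Hsph1, and the windows of Hspa1a and Hspa1b held no TTCNNGAA. Other forms of the element were not searched for, so the count cannot show whether Hspa1a and Hspa1b lack a heat shock element. The Hsph1 windows belong to 1 gene. An Hspd1 window and the Hspe1 window, on opposite strands of chromosome 1, held 2 matches each. These windows may overlap, so the matches may not be independent.

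Markers of alveolar epithelium, the neighbour of the capillary, were detected in all 3 libraries. All 24 listed genes were at 1 TPM or more in each. Of the 22 at 10 CPM or more, 19 were low in replicate 2, as were 3.71% of all genes. After Sftpc, the surfactant genes Sftpb (384, 86.5 and 788 TPM) and Sftpa1 (315, 86 and 678 TPM) and the transporter Slc34a2 (123, 30 and 272 TPM) repeated that order. The type 1 cell marker Ager was at 179, 91.5 and 217 TPM. Hopx (114, 116 and 146 TPM), Lpcat1 and Abca3 had no such profile. Epcam, a general epithelial marker, was at 5.24, 4.04 and 18.5 TPM. The list summed to 4470, 1388 and 10554 TPM, a ratio of 7.6 between the extremes, against 1.16 for the pan-endothelial list. In the airway list 3 of 4 genes at 10 CPM or more were low in replicate 2, against the same 3.71%. Scgb1a1 was at 1029, 295 and 1658 TPM, Sec14l3 at 181, 99.4 and 241 TPM and Foxj1, a factor of ciliated cells, at 6.57, 1.88 and 16.7 TPM, in the same order as Sftpc. Tppp3 (320, 271 and 388 TPM) varied less. Lyz2, a lysozyme made by macrophages and type 2 cells, was at 1077, 292 and 2302 TPM, while the macrophage marker Csf1r was at 3.85, 1.62 and 3.16 TPM.

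Replicate 1 was set apart by platelet and fibroblast genes. Of the 9 platelet and red cell genes at 10 CPM or more, 7 were high in replicate 1 (2.46% of all genes were). Another 1 was low in replicate 3, against 0.86% of all genes. The platelet tubulin Tubb1 (358, 78.5 and 110 TPM), the platelet chemokines Ppbp (595, 124 and 193 TPM) and Pf4 (190, 33.5 and 68 TPM), the integrin Itga2b (96.4, 21.1 and 26 TPM) and the glycoprotein Gp9 (126, 29.1 and 27.6 TPM) were highest there. Red cell genes were mixed. Hba-a1 was high in replicate 1 at 301, 196 and 145 TPM, its near-identical copy Hba-a2 was low in replicate 3 at 165, 168 and 72.1 TPM, and Hbb-bs had no profile at 110, 116 and 94.1 TPM. Of the 13 fibroblast genes at 10 CPM or more, 7 were high in replicate 1 and 5 low in replicate 2. Of all genes, 2.46% and 3.71% were. Inmt was at 2057, 452 and 841 TPM, Gsn at 1924, 572 and 868 TPM Mfap4 at 488, 113 and 368 TPM and the receptor Pdgfra at 139, 35 and 57.3 TPM. Dcn, a defining fibroblast gene, was at 7.25, 7.34 and 4.17 TPM. Pericyte and smooth muscle genes differed less, with 5 of 15 low in replicate 3 (0.86% of all genes were). Cox4i2 was at 154, 180 and 126 TPM, and Gucy1b1 and Gucy1a1, the subunits of the nitric oxide receptor, were at 151 ± 36.5 and 148 ± 32.5 TPM. Pdgfrb was at 169, 143 and 106 TPM, Acta2 at 41.2, 31.4 and 19.6 TPM and Cspg4 at 10.2, 10.2 and 7.55 TPM.

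**Figure D4:**
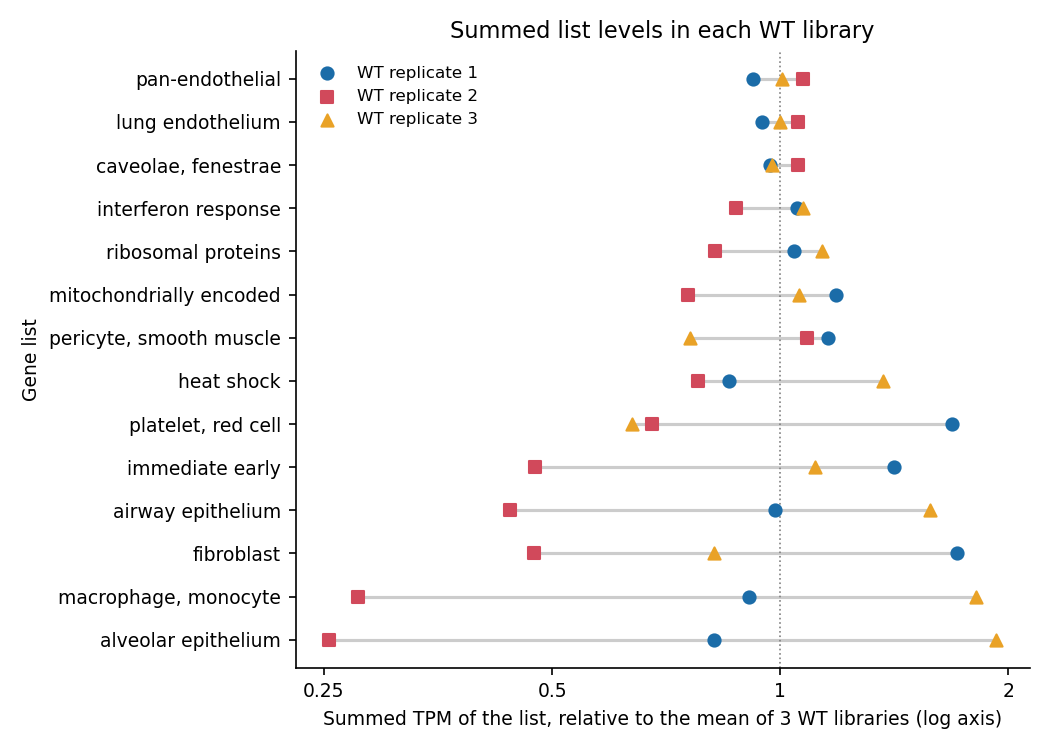
Summed TPM of 14 gene lists in each WT library, relative to the mean of the 3 libraries (log axis). Pan-endothelial sums differed by a ratio of 1.16 between the highest and lowest library, alveolar epithelial sums by 7.6 and immediate early sums by 2.97.

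The same lists spanned wide ranges outside WT. Alveolar epithelial sums were 4161, 776 and 5216 TPM in DNMAML and 768, 1577 and 3337 TPM in Notch1f/f replicates 1, 2 and 3. Immediate early sums were 13729, 4765 and 13120 TPM in DNMAML and 6594, 11517 and 11296 TPM in Notch1f/f. Platelet and red cell sums were 4193, 754 and 633 TPM in DNMAML and 1618, 681 and 1284 TPM in Notch1f/f. Fibroblast sums were 5415, 1033 and 3046 TPM and 654, 447 and 1600 TPM. In each of these 4 lists the number of the highest library was the same in WT and DNMAML. Among other-cell lists, that number differed for airway, macrophage, neutrophil and mesothelial genes. Airway sums, for example, were highest in WT replicate 3 (2661 TPM) and in DNMAML replicate 1 (3891 TPM). WT replicate 2 had the lowest immediate early sum and Y-linked counts, while DNMAML replicate 2, the lowest of its genotype, had Xist at 234 TPM and Ddx3y at 0 counts. In WT the sex of the animal cannot be told apart from other traits of replicate 2. Its part in these sums was not tested. Pan-endothelial sums stayed between 27328 and 35929 TPM in the 9 libraries.

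**Figure D5:**
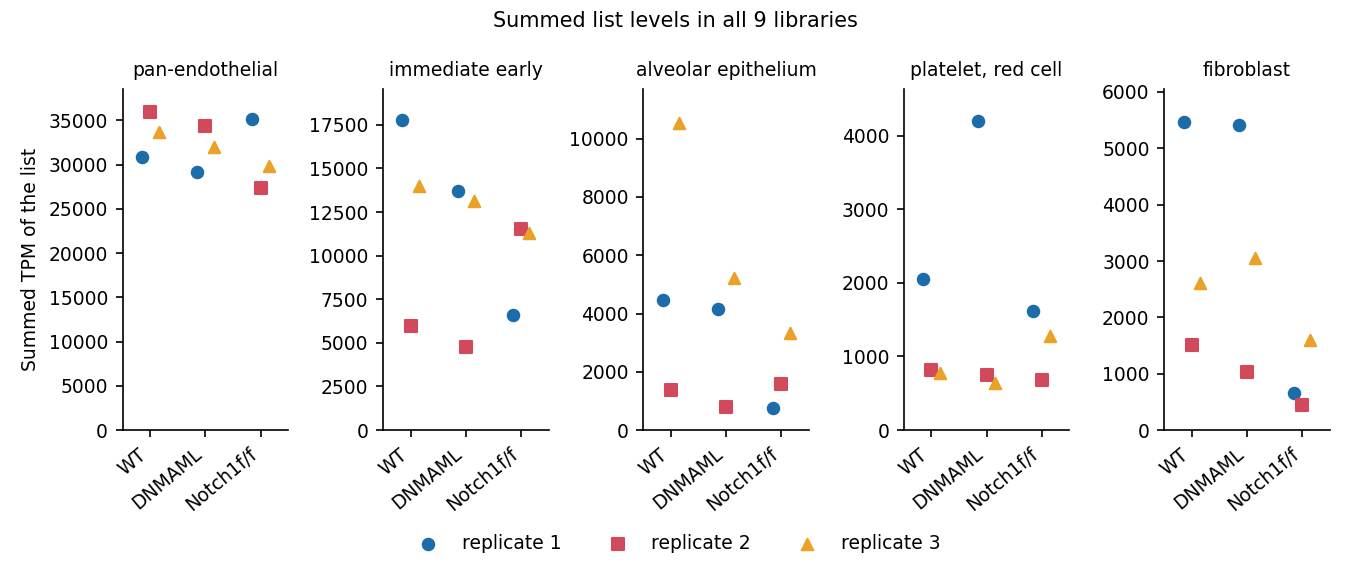
Summed TPM of 5 gene lists in each of the 9 libraries, by genotype, with marker shape and colour for the replicate number in the labels. Pan-endothelial sums lie between 27328 and 35929 TPM, while alveolar epithelial sums run from 768 to 10554 TPM.

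Housekeeping classes moved to a lesser degree. The 38 ribosomal protein genes summed to 18750, 14749 and 20449 TPM, and 5 of the 37 at 10 CPM or more were low in replicate 2 (3.71% of all genes were). Mitochondrially encoded genes summed to 25508, 16289 and 22828 TPM. Both classes have near-identical copies, so single values such as Rps15 (1895 ± 215 TPM) or mt-Nd3 (18.8 ± 7.74 TPM) are uncertain. Some noncoding classes took a larger share of counts in replicate 2, while pseudogenes took 0.669%, 0.647% and 0.679%. Long intergenic noncoding RNAs took 1.69%, 2.17% and 1.55%. Most of this was Malat1 alone, at 1.33%, 1.86% and 1.23%, and the rest of the class was not higher in replicate 2. Antisense genes took 0.2%, 0.294% and 0.19%, and without stated use of strand antisense reads cannot be told from those of the partner gene. Of the 129 genes high in replicate 2, 78 were protein-coding, and of the 345 low there, 333 were. For replicate 1 these were 228 of 229 high and 37 of 40 low genes. For replicate 3 they were 69 of 80 high and 66 of 80 low genes. The protein-coding share of all genes at 10 CPM or more is not given here.

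For 3 whole-library measures, WT was compared with the other 6 libraries by two-sided exact permutation tests of log2 values over 84 regroupings, of which the smallest possible p is 0.0238. The mitochondrially encoded share of counts was 0.725 ± 0.165% in WT (SD, n = 3) and 0.98 ± 0.243% in the others (n = 6), a log2 difference of -0.42 (exact p = 0.167, Benjamini-Hochberg adjusted p = 0.25). The 100 highest genes of each library held 22 ± 0.743% of counts in WT and 21.1 ± 0.544% in the others (log2 difference 0.061, exact p = 0.0714, adjusted p = 0.214). At an equal depth of 15522100 counts, 23022 ± 603 genes were detected in WT and 23346 ± 1672 in the others (log2 difference -0.017, exact p = 0.738, adjusted p = 0.738). None of the 3 differences passed 0.05.

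Upstream bases differed with level and spread in a descriptive count. Of the protein-coding genes, 16499 were matched to 20118 windows. The median number of CpG dinucleotides in the 250 bases was 2 for genes at 0 counts in all WT libraries, 11 for genes between 1 and 10 TPM, 16 between 10 and 1000 TPM and 12 above 1000 TPM. TATAAA was found in 17.5% of the windows of genes at 0 counts, 3.3% of those between 10 and 100 TPM and 10.8% of the 74 windows above 1000 TPM. Among genes at 10 CPM or more, the median CpG count was 17 for a CV below 0.1 and 10 for a CV of 0.5 or more. CGGAAG, a core sequence of ETS factor sites that holds a CpG, was found in 27.5% and 4.39% of these windows, and AGGAAG, another such core, in 27.4% and 36.4%. Genes of a list or level share many properties, and no test was made.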

How the data were processed

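Per the labels' protocols, total RNA of sorted cells was treated with DNase, depleted of ribosomal RNA and made into stranded libraries in 1 batch. The authors deposited whole-number counts per gene for 9 libraries, not normalized, with gene lengths. Counting used featureCounts 2.0.1 with Ensembl release 107 of GRCm39, per the file headers, while the submitters' processing notes name STAR 2.7 and the build mm10. No setting for strandedness, read pairs or multiply mapped reads appears in the header's command, so overlapping genes and near-identical copies are uncertain. Symbols and gene types were matched by identifier for 52073 of 56748 genes, from a name table and a GRCm38 annotation used for nothing else, and a symbol on several identifiers stands for the one with most counts.

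CPM was computed with TMM-scaled library sizes (edgeR 4.0.16, R 4.3.3), and TPM from counts and lengths over all genes. Fold profiles used log2(CPM + 1). The spread estimate and the profile rule were checked on simulated counts. Total counts per library ran from 15522100 to 27842496, and a count of 0 allows up to 3 counts, which for WT is 0.153 to 0.192 CPM, for counting error only.

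The 55 gene lists were described by counts and medians, with 959 of 974 symbols matched. Named genes are list members, at least the 3 highest of each list described, the 20 highest protein-coding genes by TPM, those of highest and lowest CV and those whose TPM and CPM ranks differ most, without clone names and without a gene that is not reported here. Members and lists were chosen with earlier results of these data known. Permutation tests were enumerated in Python 3.11.15. Other scalings, filters, thresholds and left-out libraries were tried.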

Additional observations from a re-analysis of the deposited data

How the results depend on the processing

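The number of genes at 1 TPM or more stayed within 1.5 times of 15287 under all alternatives run, from 10963 at 5 TPM or more to 18698 at 0.1 TPM or more. By TPM in place of counts, 530 genes held 50% of the total. The common biological coefficient of variation was 0.507 with no filter, 0.176 for genes at 100 CPM or more and 0.225 on counts divided by 2, an alternative added after seeing the data like the 2-fold and protein-coding profiles, and without each WT replicate it ran from 0.23 to 0.288. The median CV was 0.457 with no filter and 0.0903 at 100 CPM or more, and without each WT replicate it ran from 0.0838 to 0.108. At 2-fold, the genes high and low in a replicate were 104 and 2 for replicate 1, 24 and 143 for replicate 2, and 11 and 6 for replicate 3, and 78 protein-coding genes were high in replicate 2 at 1.5-fold. Profiles need all 3 libraries, so none was left out for them.

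The log2 difference in detected genes between WT and the others turned to 0.0047 without WT replicate 3 and to 0.0059 without Notch1f/f replicate 1, and was lowest at -0.049 without Notch1f/f replicate 2; the cause was not tested. With the replicate block (27 regroupings, smallest possible p 0.0741) the log2 differences stayed at -0.42 for the mitochondrial share, 0.061 for the 100 highest genes and -0.017 for detected genes by construction, with exact permutation p of 0.222, 0.148 and 0.741. No difference passed 0.05 with or without the block. Deviations of same-numbered libraries correlated at 0.576, 0.418 and 0.209 between WT and DNMAML, but at -0.239, -0.119 and 0.213 between WT and Notch1f/f, so the numbers were not taken to pair all 9 libraries.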

Other observations

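Clock genes differed between the WT libraries in a way not described above. Nr1d1, the repressor REV-ERBalpha, was at 526, 414 and 275 TPM in replicates 1, 2 and 3. Its known target Arntl (BMAL1) was at 5.7, 11.8 and 11.5 TPM. Replicate 1 thus held the highest Nr1d1 and the lowest Arntl. Nr1d2 was at 89.7, 67 and 68.2 TPM, Per1 89.7, 86.1 and 42.5 TPM, Dbp at 47.2, 33.1 and 22.1 TPM and Ciart at 40.3, 74.3 and 40.1 TPM, while Clock was even at 40.2, 44.9 and 41.3 TPM. The 15 clock genes at 10 CPM or more had a median CV of 0.319, against 0.119 over all genes at that level. The labels used here give no time of collection.

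The 16 glycolysis genes at 10 CPM or more had a median CV of 0.113, near that of all genes, with Aldoa at 433, 408 and 433 TPM, Pkm at 188, 191 and 182 TPM and Ldha at 123, 100 and 148 TPM. The glucose transporter Slc2a1 was at 8.91, 11.1 and 16.3 TPM. The 17 sterol and fatty acid genes at 10 CPM or more had a median CV of 0.158 and were led by Acly (130, 142 and 170 TPM). Scd1 (115, 32 and 259 TPM) and Fasn (25, 13.8 and 45.9 TPM), both also expressed by alveolar type 2 cells, followed the order of the surfactant genes, while Srebf1 (53.6, 56.1 and 52.2 TPM) did not. The highest imprinted genes were even, with Igf2r at 71, 69.6 and 72.5 TPM, Grb10 at 46.6, 46.1 and 45.6 TPM and Impact at 40.2, 47.6 and 37.9 TPM.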
